A study of Mus musculus with 6 samples.

Results

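The Hox cluster genes were taken as every gene whose symbol is Hoxa, Hoxb, Hoxc or Hoxd followed only by a number and that has an array probe set annotated to that symbol alone. Of the 39 such genes that RefSeq lists in mouse, 33 met this rule, out of 18193 genes measured. The other 6 had no such probe set and are not analysed here. Where a gene had several probe sets, it was represented by the one whose log2 values averaged highest. RNA was compared between 3 tissues of male mice, each in 2 strains: the E13.5 testis (called genital ridge in the source label), the testis at postnatal day 1 (PN1), and the whole E13.5 embryo. The strains were the inbred 129/Sv and the consomic 129.MOLF-Chr19, which carries chromosome 19 of the MOLF strain on a 129 background and develops testicular germ cell tumors at high incidence. Both E13.5 testis arrays held RNA of 20 pooled pairs of testes, the PN1 arrays held 12 pairs (129/Sv) and 25 pairs (129.MOLF-Chr19), and each embryo array held 3 pooled embryos. There was 1 array for each of the 6 groups, so the 2 strains serve as the 2 arrays of a tissue, and the p-values below measure the spread between these arrays only. None of the labels says whether the mesonephros was removed from the E13.5 gonad, or the gonads from the embryos.

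Hox genes encode homeodomain transcription factors that give cells along the body axis their regional identity. They lie in clusters in which genes of low paralog number, at the 3' end, are active early and far forward, and genes of high number, at the 5' end, late and far back. In the trunk mesoderm that forms the genital ridge and the mesonephros beside it, mid and posterior paralogs are the ones usually active, and loss of Hoxa10 or Hoxa11 leaves male mice with undescended testes. In RefSeq's GRCm38.p6 annotation the Hoxa cluster lies on chromosome 6, Hoxb on chromosome 11, Hoxc on chromosome 15 and Hoxd on chromosome 2, and none on chromosome 19.

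The Hoxd genes that carry the difference between testis and embryo are neighbours in the order Hoxd10, Hoxd9, Hoxd8, and Hoxd13 lies at the 5' end of the same cluster. Their promoters are shown because these genes of 1 cluster moved in opposite directions. Each sequence is the 250 bases before the RefSeq start (GRCm38.p6), with the retinoid receptor core motif AGGTCA in capitals (it reads TGACCT where it lies on the other strand). The HOX-PBX motif TGATNNAT and the CDX motif TTTATG were also searched on both strands and were not found in any of the 4.
Hoxd8, chr2:74704365-74704614, + strand: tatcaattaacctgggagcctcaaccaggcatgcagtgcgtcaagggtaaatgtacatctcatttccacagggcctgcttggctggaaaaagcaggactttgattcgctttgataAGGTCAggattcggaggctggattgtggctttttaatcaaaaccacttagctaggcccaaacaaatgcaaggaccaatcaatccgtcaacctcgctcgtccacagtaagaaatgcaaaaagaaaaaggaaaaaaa
Hoxd9, chr2:74697513-74697762, + strand: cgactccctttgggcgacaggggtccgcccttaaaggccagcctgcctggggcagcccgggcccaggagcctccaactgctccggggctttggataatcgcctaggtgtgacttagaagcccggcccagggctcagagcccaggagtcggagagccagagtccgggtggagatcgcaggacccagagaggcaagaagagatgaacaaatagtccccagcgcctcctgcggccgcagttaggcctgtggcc
Hoxd10, chr2:74691641-74691890, + strand: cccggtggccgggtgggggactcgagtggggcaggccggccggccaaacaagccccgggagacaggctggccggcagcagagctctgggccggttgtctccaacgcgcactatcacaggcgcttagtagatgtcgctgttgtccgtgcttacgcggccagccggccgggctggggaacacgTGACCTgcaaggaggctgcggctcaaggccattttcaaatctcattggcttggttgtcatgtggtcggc
Hoxd13, chr2:74667975-74668224, + strand: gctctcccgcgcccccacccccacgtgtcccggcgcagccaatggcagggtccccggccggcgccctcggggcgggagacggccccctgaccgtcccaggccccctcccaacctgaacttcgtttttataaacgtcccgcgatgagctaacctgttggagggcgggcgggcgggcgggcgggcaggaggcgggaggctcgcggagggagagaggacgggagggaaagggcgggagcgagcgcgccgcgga
Relative to the start, the core motif began at -135 in Hoxd8 and at -69 in Hoxd10. The 4 windows differed in base composition, with a GC content of 44.4% in Hoxd8, 65.2% in Hoxd9, 65.6% in Hoxd10 and 74.4% in Hoxd13. Hoxd8 held 6 CpG dinucleotides, Hoxd9 13, Hoxd10 20 and Hoxd13 31, against a median of 6 over 32851 promoters of the same length and 12.5 over the 24 Hox promoters of 22 genes in the RefSeq table. AGGTCA was in 25.0% of those Hox promoters and 14.0% of all, TGATNNAT in 16.7% and 7.68%, TTTATG in 20.8% and 10.8%, and GAGAG, a short GAGA motif, in 58.3% and 54.7%. Matches that overlap another motif were kept, and a match describes letters only.

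Signals are probe set intensities on a linear scale, and in each pair below the 129/Sv array comes before the 129.MOLF-Chr19 array. For tests, values under an array's 25th percentile (its floor) were raised to it, taken to log2 and centred on the array's median, so a difference is a log2 difference relative to that median. Array medians ran from 220 to 251. The 129.MOLF-Chr19 PN1 array stood apart in its Actb control, with a ratio of 3' to 5' signal of 1.84 against 1.09 to 1.19 on the other 5, and the 129/Sv embryo array in its 18S control, at 3053 against 571 to 787. The tissue labels were set beside marker lists. In the E13.5 testis against the embryo, 5 of 5 tested germ cell, 6 of 8 Sertoli and 4 of 4 Leydig markers were higher. Of neural markers 5 of 6 were lower, with 4 of 5 for skeletal muscle and 3 of 4 for liver and erythroid. The 5 tested peritubular and interstitial markers were split, with 2 higher and 2 lower. Of all tested genes 17.2% were higher and 5.34% lower. In the PN1 testis against the embryo, 4 germ cell, 7 Sertoli and 4 Leydig markers were higher and 0 lower. Of all genes 11.7% were higher there and 7.85% lower.

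Of the 33 Hox genes, 17 lay above the array median on both E13.5 testis arrays, 13 on both PN1 testis arrays and 18 on both embryo arrays. The like counts over all genes were not made. By cluster, the number in the E13.5 testis stood at 5 of 9 for Hoxa, 5 of 9 for Hoxb, 4 of 7 for Hoxc and 3 of 8 for Hoxd. In the PN1 testis the same counts were 5, 4, 1 and 3, so that the Hoxc cluster went from 4 genes to 1, Hoxc6. By paralog number, 5 of 10 measured genes numbered 1 to 4, 7 of 9 numbered 5 to 8 and 5 of 14 numbered 9 to 13 were above the median on both E13.5 testis arrays. The filter for the tests required a signal above the array median on at least 2 arrays. It kept 21 of the 33 Hox genes, where it kept 13027 of all 18193 genes. The 12 left untested were Hoxa2, Hoxa4, Hoxb1, Hoxb5, Hoxb7, Hoxb13, Hoxc9, Hoxc13, Hoxd1, Hoxd3, Hoxd11 and Hoxd12. Intensities of these 12 lay between 53.4 and 318. Hoxb1, Hoxb13 and Hoxd1 were at the floor on all 6 arrays and have no measured difference. Of the 21 tested genes, 13 were above the median on some array of every tissue. Hoxc5 passed only through the E13.5 testis, Hoxd13 only through the embryo, and Hoxd10 only through the testis arrays, so each was admitted by the tissue in which it is high. Of the others called lower at PN1, Hoxa10, Hoxb2, Hoxc4 and Hoxc10 had no PN1 array above the median.

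**Figure D1:**
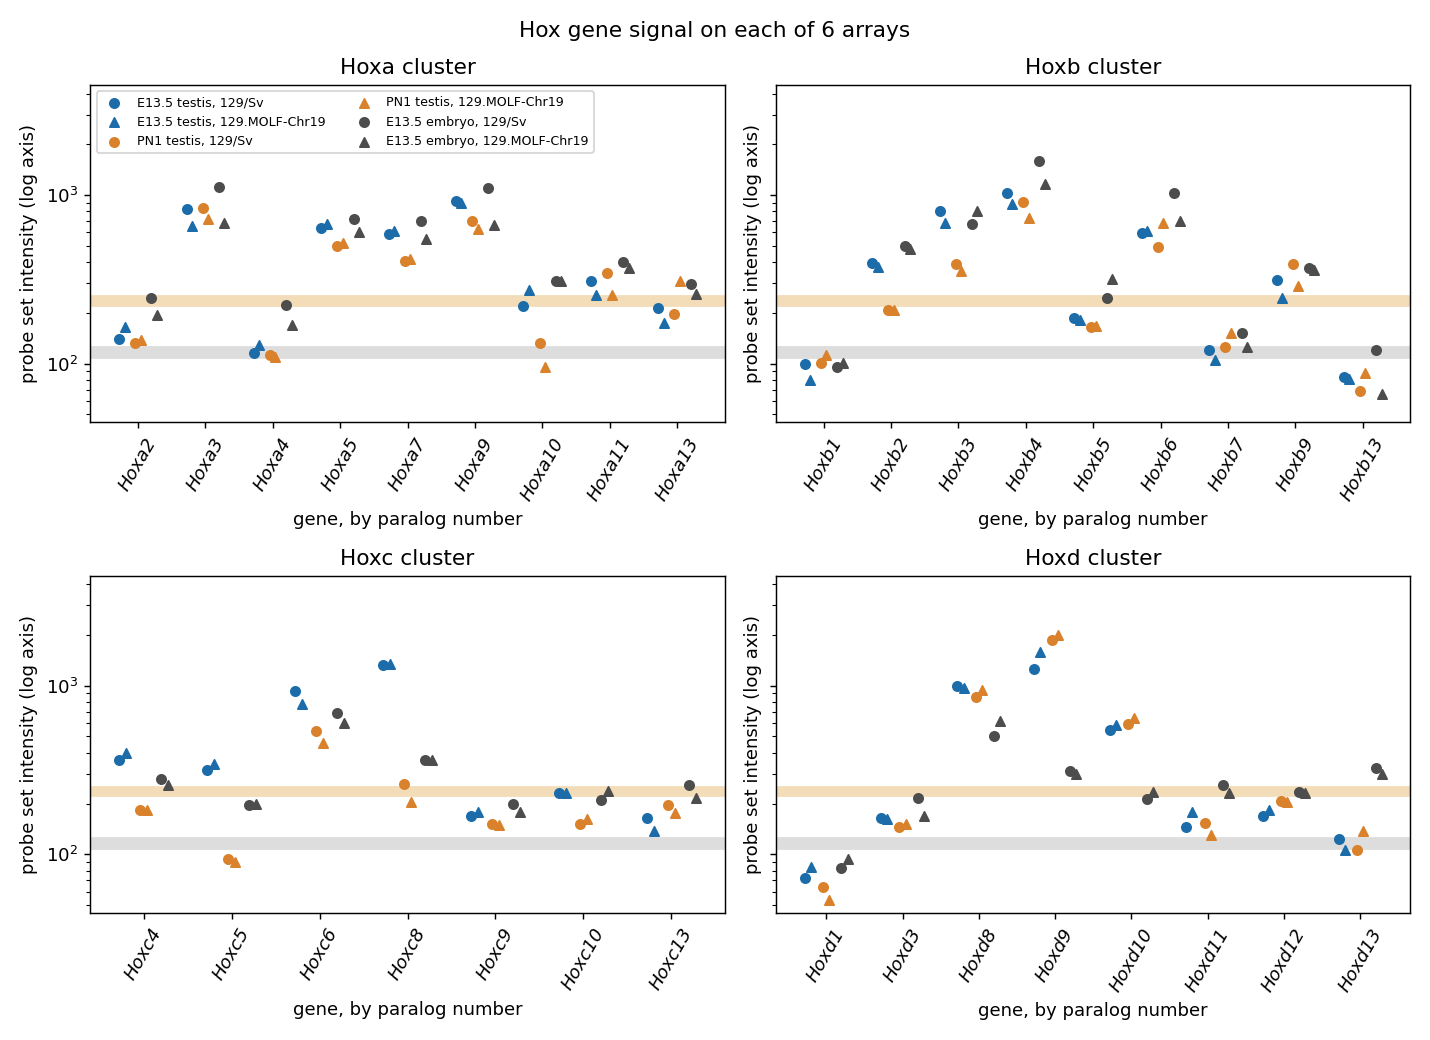
Probe set intensity (log axis) of the 33 Hox genes on each of the 6 arrays, by cluster and paralog number; colour marks the tissue, a circle 129/Sv and a triangle 129.MOLF-Chr19. The tan band spans the 6 array medians and the grey band the 6 floors. Hoxd8, Hoxd9 and Hoxd10 lie higher on all 4 testis arrays than on the embryo arrays, and Hoxc4, Hoxc5, Hoxc6 and Hoxc8 lie highest on the E13.5 testis arrays.

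The comparison of the E13.5 testis with the embryo of the same age asks which differences belong to the gonad. Among the 21 tested Hox genes, 7 were higher in the testis and all 7 were in the Hoxc and Hoxd clusters: Hoxc4, Hoxc5, Hoxc6, Hoxc8, Hoxd8, Hoxd9 and Hoxd10. Only Hoxd13 was lower. Of all 13027 genes tested, 17.2% were called higher and 5.34% lower (limma on the 6 arrays with tissue and strain in the model, Benjamini-Hochberg adjusted p under 0.05). The median log2 difference was 0.07 over the tested Hox genes and 0.03 over all tested genes. Calls over all genes were 76.3% higher under this scaling, 64.5% with values as deposited and 55.9% after quantile normalization, where the Hox counts were 6 higher and 3 lower (Hoxa11, Hoxb4, Hoxd13), and 6 higher and 2 lower (Hoxb4, Hoxd13).

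Hoxd9 had intensities of 1261 and 1597 in the E13.5 testis and 314 and 301 in the embryo. Hoxd10, which helps specify lumbar motor neurons and the hindlimb, had 544 and 583 in the testis against 214 and 235. Hoxd8 read 994 and 969 against 501 and 614. For each of the 3 neighbours both testis arrays lay above both embryo arrays. How many of all genes separate in this way was not counted, here or below, so such statements only describe the values. The fitted log2 difference was 2.29 ± 0.15 (SE, adjusted p = 6.34e-05 by limma) for Hoxd9, or 4.89-fold. It was 1.41 ± 0.11 (adjusted p = 0.000204 by limma) for Hoxd10, or 2.66-fold, a gene that entered the test only through the testis, and 0.91 ± 0.13 (adjusted p = 0.00268 by limma) for Hoxd8, or 1.87-fold. The middle gene of the 3 had the largest difference on these probe sets, and whether the genes differ from each other was not tested. Without the 129/Sv E13.5 testis array the Hoxd8 call was lost. The Hoxd8 and Hoxd10 windows shown above each hold the core motif, and the Hoxd9 window does not.

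At the 5' end of the cluster, Hoxd13, a regulator of digit and genital tubercle growth, read 124 and 106 in the E13.5 testis against 327 and 299 in the embryo. The 129.MOLF-Chr19 testis value was at that array's floor, and the gene entered the test only through the embryo arrays. The difference was -1.36 ± 0.15 (adjusted p = 0.000744 by limma), and it was -0.75 with a floor at the 40th percentile, which raises the testis values. Of the genes between Hoxd13 and Hoxd10, Hoxd12 read 169 and 184 against 235 and 231, and Hoxd11 144 and 178 against 258 and 232. Neither was tested, and on both the testis arrays lay below the embryo arrays. RefSeq's spans of Hoxd10 and Hoxd11 overlap, and the probe sets of the pair differed in opposite directions. Limb tissue is part of the embryo. Of 5 tested limb markers, 2 (Msx1 and Lmx1b) were lower in the E13.5 testis and none higher. Of all tested genes 5.34% were lower and 17.2% higher. The limb markers Tbx5, Pitx1 and Msx2 were not called. The list's summed intensity was 1964 to 2289 in the testis and 2847 to 3090 in the embryo. The part of limb tissue in the Hoxd13 difference was not tested.

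In the Hoxc cluster the 4 higher genes are neighbours in the order Hoxc8, Hoxc6, Hoxc5, Hoxc4. Hoxc8, known for patterning the thoracic skeleton, read 1331 and 1339 in the E13.5 testis and 362 and 363 in the embryo. The arrays of a tissue agreed closely, and the difference was 1.97 ± 0.15 (adjusted p = 0.000145 by limma), or 3.90-fold. Hoxc5 read 317 and 344 against 197 and 198, a difference of 0.82 ± 0.13 (adjusted p = 0.00419 by limma), and it entered the test only through these testis arrays. Without the filter the calls of Hoxc5, Hoxd10 and Hoxd13 remained. Hoxc4 read 361 and 397 against 278 and 259, a difference of 0.58 ± 0.13 (adjusted p = 0.0166 by limma). Hoxc6, which acts in brachial motor neurons, read 935 and 776 against 691 and 604, a difference of 0.48 ± 0.12 (adjusted p = 0.0240 by limma). On the representing probe sets the testis and embryo arrays did not overlap for any of the 4, but 1 other probe set of Hoxc5 did overlap, as given further on. The calls of Hoxc4 and Hoxc6 were lost on leaving out any 1 of the 4 arrays compared, and that of Hoxc5 without the 129.MOLF-Chr19 E13.5 testis array. Hoxc6 also lost its call with values as deposited, after quantile normalization (0.29) and without the block, 7 of 16 alternatives in all, and its difference was 0.94 with probe sets averaged. Further toward the 5' end, Hoxc10 read 229 and 231 against 209 and 237 and was not called (0.13 ± 0.13, adjusted p = 0.502 by limma). Hoxc9 (169 and 179 against 198 and 178) and Hoxc13 (164 and 137 against 256 and 217) were not tested. Without the filter, Hoxc13 and Hoxa4 were called lower in the testis beside Hoxd13.

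No Hoxa or Hoxb gene was called in this comparison on the representing probe sets. The 13 tested Hox genes that were not called had differences from -0.44 (Hoxa13) to 0.17 (Hoxa9), with adjusted p from 0.0532 to 0.881 by limma. Closest to the threshold was Hoxb4, known for its action in blood stem cells, with 1024 and 888 in the testis against 1592 and 1159 in the embryo (-0.43 ± 0.13). Its 2 tissues did not overlap, yet the embryo arrays differed from each other by more than the testis arrays did. The 9 untested genes above the floor on some array all had a mean difference below 0, from -0.57 for Hoxc13 to -0.03 for Hoxc9. The like count over all untested genes was not made, here or for the PN1 testis. Leaving out 1 array moved the count of higher genes to as few as 4: without the 129/Sv E13.5 testis array they were Hoxc5, Hoxc8, Hoxd9 and Hoxd10, and without the 129.MOLF-Chr19 E13.5 testis array Hoxc8, Hoxd8, Hoxd9 and Hoxd10. The count of lower genes was 4 without the 129.MOLF-Chr19 PN1 array (Hoxa11, Hoxa13, Hoxb4, Hoxd13), 3 without the 129/Sv PN1 array (Hoxa13, Hoxb4, Hoxd13) and 2 without the 129.MOLF-Chr19 embryo array (Hoxb6, Hoxd13).

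**Figure D2:**
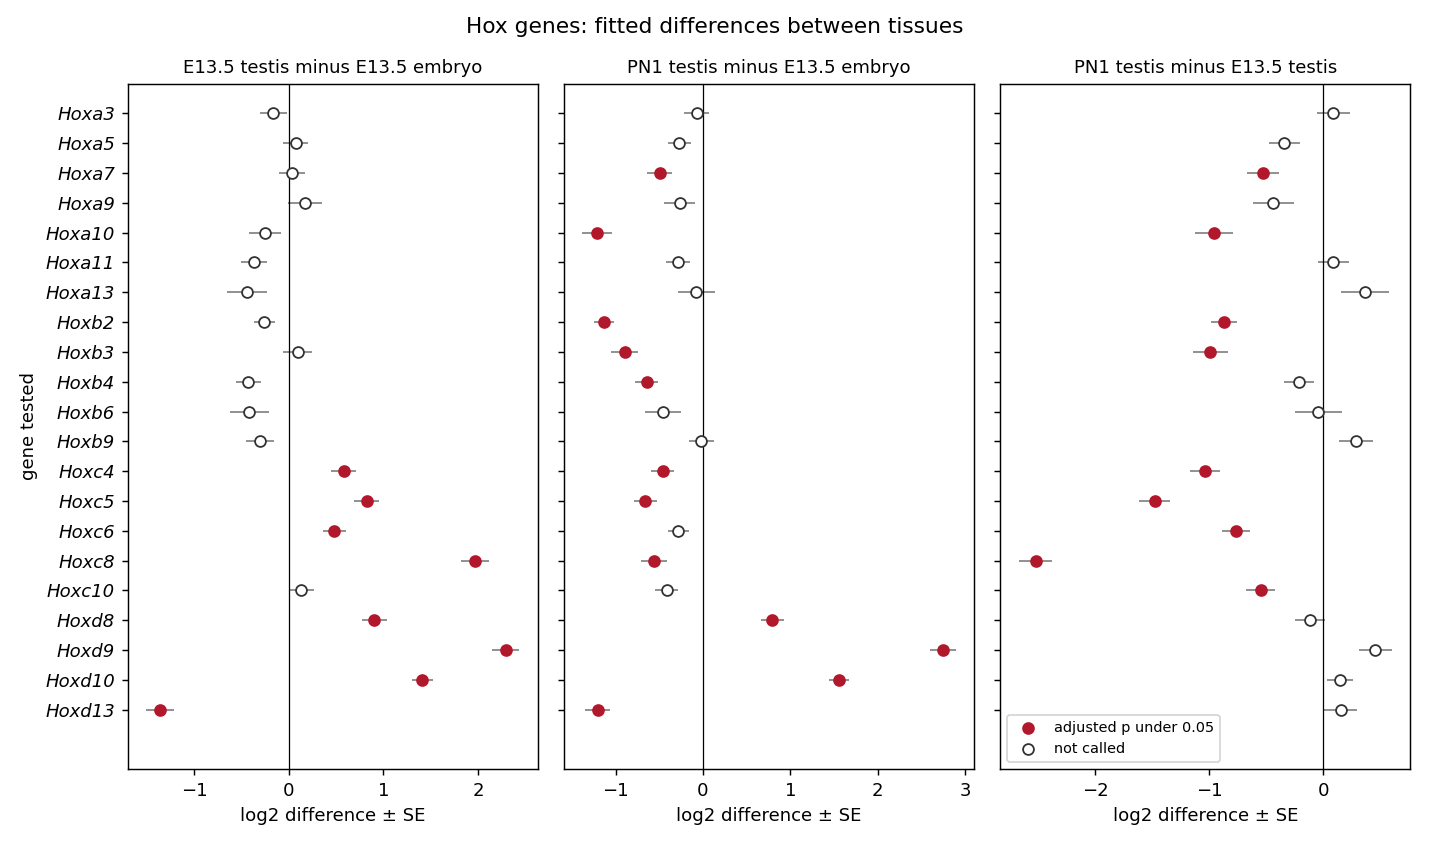
Fitted log2 difference with its SE for the 21 tested Hox genes in 3 comparisons: E13.5 testis minus embryo, PN1 testis minus embryo, and PN1 minus E13.5 testis. Filled points have an adjusted p under 0.05 and open points do not; Hoxc8 is at 1.97 in the first panel and -2.53 in the third, while Hoxd9 is at 2.29, 2.74 and 0.45.

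Between E13.5 and PN1 Hox signal fell in genes of the Hoxa, Hoxb and Hoxc clusters, and no Hoxd gene was called. Of the 21 tested Hox genes 9 fell and 0 rose at an adjusted p under 0.05 in limma, where 1 was higher at an unadjusted p under 0.05. The 9 were Hoxa7, Hoxa10, Hoxb2, Hoxb3, Hoxc4, Hoxc5, Hoxc6, Hoxc8 and Hoxc10, which includes all 5 tested Hoxc genes. Of all tested genes 10.8% fell and 4.21% rose, and the median log2 difference was -0.34 over the Hox genes and -0.03 over all. Calls over all genes were 28.0% higher, or 25.4% with values as deposited and 47.1% after quantile normalization, where the Hox counts were 0 higher and 9 lower, and 1 higher (Hoxd9) and 8 lower. In RNA from whole testes, fewer cells of a type and less RNA per cell cannot be told apart.

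The fall was steepest in Hoxc8, from 1331 and 1339 at E13.5 to 259 and 205 at PN1. That was a difference of -2.53 ± 0.15 (adjusted p = 9.57e-05 by limma), or 5.76-fold, and it left the PN1 values below the embryo's 362 and 363. Hoxc5 went from 317 and 344 to 93.4 and 89.9, both under the floor, so the size of its fall depends on the floor. It was -1.48 ± 0.13 (adjusted p = 0.000652 by limma) as reported and -0.88 with a floor at the 40th percentile, and was called under both. Hoxc4 went from 361 and 397 to 183 on both arrays (-1.04 ± 0.13, adjusted p = 0.00245 by limma). These genes share a cluster with Hoxc6, which went from 935 and 776 to 542 and 457 (-0.77 ± 0.12, adjusted p = 0.00576 by limma). Hoxc10, a posterior gene of lumbar motor neurons, went from 229 and 231 to 150 and 162 (-0.55 ± 0.13, adjusted p = 0.0284 by limma), or -0.37 and not called with a floor at the 40th percentile. In each of the 5, both PN1 arrays lay below both E13.5 testis arrays. The untested Hoxc9 went from 169 and 179 to 152 and 149, and Hoxc13 went the other way, from 164 and 137 to 196 and 176.

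Of the Hoxb genes, Hoxb2 and Hoxb3, which pattern the hindbrain, fell. Hoxb2 went from 396 and 372 to 208 on both PN1 arrays (-0.88 ± 0.11, adjusted p = 0.00284 by limma). Hoxb3 went from 801 and 685 to 390 and 352 (-0.99 ± 0.15, adjusted p = 0.00570 by limma), a value that its other probe set did not share, as described further on. Hoxb4 (1024 and 888 to 914 and 729), Hoxb6 (594 and 608 to 492 and 679) and Hoxb9 (313 and 246 to 392 and 289) were not called. For all 3 the ranges of the ages overlapped.

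Of the Hoxa genes, Hoxa10, required for testis descent, read 219 and 273 at E13.5 and 133 and 95.4 at PN1, the last under its array's floor. Its difference was -0.96 ± 0.17 (adjusted p = 0.00897 by limma). With a floor at the 40th percentile it was -0.45 and not called, and the call was also lost without the 129.MOLF-Chr19 E13.5 testis array. Hoxa7 went from 589 and 609 to 408 and 416 (-0.53 ± 0.14, adjusted p = 0.0426 by limma), without overlap between ages. The other Hoxa genes tested were not called: Hoxa3 read 828 and 651 then 833 and 720, Hoxa5 634 and 673 then 501 and 522, and Hoxa9 921 and 897 then 704 and 631. Hoxa11 read 307 and 255 then 342 and 256. Hoxa13, which acts in digits and the genital tubercle, read 214 and 174 then 195 and 311, so that 1 PN1 array lay between the E13.5 arrays and the other above them.

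The 3 Hoxd genes that were higher in the testis were not called with age. Hoxd9 read 1877 and 1989 at PN1 against 1261 and 1597 (0.45 ± 0.15, adjusted p = 0.0792 by limma). Both PN1 arrays were above both E13.5 arrays. Hoxd10 read 589 and 648 against 544 and 583 (0.14 ± 0.11), and Hoxd8 861 and 940 against 994 and 969 (-0.12 ± 0.13). The 12 tested genes that were not called ran from -0.44 (Hoxa9) to 0.45 (Hoxd9). The number of Hox genes that fell was 4 without the 129/Sv E13.5 testis array (Hoxa10, Hoxc4, Hoxc5, Hoxc8) and 2 without the 129.MOLF-Chr19 E13.5 testis array (Hoxc5, Hoxc8). Without the 129/Sv PN1 array, 1 gene rose (Hoxa13). The calls of Hoxa7 and Hoxc10 were lost on leaving out any 1 of the 4 testis arrays.

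Some markers of the tissue beside the gonad also differed with age, in both directions. The mesonephros and Wolffian duct list had a summed intensity of 3090 to 3585 in the E13.5 testis, 2634 to 2635 at PN1 and 2997 to 3220 in the embryo. Of its 7 tested members, Cdh16, a cadherin of duct epithelium, and Emx2, a transcription factor of the urogenital epithelium, fell with age, and Ret and Osr1 rose. Of all tested genes 10.8% fell and 4.21% rose, and the median log2 difference of the list was 0.05. Emx2 and Osr1 are also on the list of urogenital ridge transcription factors described further on. Cdh16 went from 522 and 456 to 249 and 231, and Emx2 from 826 and 794 to 139 and 140. Pax8 (639 and 448 to 591 and 510) and Lhx1 (561 and 450 to 538 and 504), which define the same epithelium, were not called, and no tested member was at 0. On the liver and erythroid list, Hbb-bh1, an embryonic globin, read 3633 and 4486 at E13.5 and 151 and 178 at PN1. It was the 1 of 4 tested members that fell with age, and 1 other, Afp, rose. The median log2 difference of that list was 0.48. Hba-a1, another globin on it, was at the floor on all 6 arrays. The part in the Hox changes of the cells that carry these markers was not tested.

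The PN1 testis differed from the embryo in both tissue and age, which cannot be told apart here, and the comparison shares the embryo arrays with the first and the PN1 arrays with the second. Among the 21 tested Hox genes 3 were higher, Hoxd8, Hoxd9 and Hoxd10, and 9 were lower: Hoxa7, Hoxa10, Hoxb2, Hoxb3, Hoxb4, Hoxc4, Hoxc5, Hoxc8 and Hoxd13. Of all tested genes 11.7% were higher and 7.85% lower, and the median log2 difference was -0.42 over the Hox genes and -0.01 over all. Calls over all genes were 59.9% higher, or 44.0% with values as deposited and 57.4% after quantile normalization, where the Hox counts were 3 higher and 10 lower in both.

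Hoxd9 differed by 2.74 ± 0.15 (adjusted p = 1.30e-05 by limma), or 6.70-fold, Hoxd10 by 1.55 ± 0.11 (adjusted p = 7.86e-05 by limma), or 2.94-fold, and Hoxd8 by 0.79 ± 0.13 (adjusted p = 0.00466 by limma), or 1.73-fold. These 3 calls held under all 16 alternatives tried. Hoxd13 was again lower, with 106 and 138 against 327 and 299 (-1.20 ± 0.15, adjusted p = 0.000999 by limma). Of the anterior Hoxb genes, Hoxb2 read 208 on both arrays against 495 and 477 (-1.13 ± 0.11, adjusted p = 0.000387 by limma). Hoxb3 read 390 and 352 against 668 and 807 (-0.90 ± 0.15, adjusted p = 0.00547 by limma). Hoxb4 read 914 and 729 against 1592 and 1159 (-0.64 ± 0.13, adjusted p = 0.0119 by limma). All 3 lay lower on both PN1 arrays than on both embryo arrays.

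Hoxa10 read 133 and 95.4 against 308 and 309 (-1.21 ± 0.17, adjusted p = 0.00188 by limma). Hoxa7 differed by -0.49 ± 0.14, Hoxc4 by -0.46 ± 0.13 and Hoxc8 by -0.56 ± 0.15, with adjusted p by limma of 0.0448, 0.0438 and 0.0342. These 3 calls were close to the threshold: that of Hoxa7 was lost under 8 of 16 alternatives, that of Hoxc4 under 9 of 15 and that of Hoxc8 under 7 of 16. Hoxc5 had a difference of -0.66 ± 0.13 (adjusted p = 0.0118 by limma), which was -0.06 and not called with a floor at the 40th percentile. With that floor the difference of Hoxa10 was -0.70 and that of Hoxd13 -0.72, both still called. The 9 tested genes not called ran from -0.46 (Hoxb6) to -0.02 (Hoxb9), and the 9 untested genes above the floor on some array ran from -0.70 (Hoxd11) to 0.10 (Hoxb7), with 8 below 0. Without the 129/Sv embryo array 4 genes were lower (Hoxa10, Hoxb2, Hoxb3, Hoxd13). The count was 6 without either E13.5 testis array or without the 129.MOLF-Chr19 PN1 array.

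Set in order of level, the tissues fell into different sequences by cluster. Hoxc4, Hoxc5 and Hoxc8 were highest in the E13.5 testis, then the embryo, then the PN1 testis, with every step called in the fit by gene. As given above, the step from the embryo to the PN1 testis was close to the threshold for Hoxc4 and Hoxc8. For Hoxc5 it depended on the floor. Hoxc6 had the same order, but its step from the embryo to the PN1 testis was not called (-0.28 ± 0.12, adjusted p = 0.148 by limma). Hoxd8, Hoxd9 and Hoxd10 had both testis ages above the embryo, and the ages were not called apart. Hoxd13 had the embryo above both ages. Hoxa7, Hoxa10, Hoxb2 and Hoxb3 had the PN1 testis lowest, and their E13.5 testis and embryo levels were not called apart. Hoxb4 and Hoxc10 were each called in 1 comparison only. Hoxa3, Hoxa5, Hoxa9, Hoxa11, Hoxa13, Hoxb6 and Hoxb9 were called in none. On its other probe set, 1455626_at, Hoxa9 had the order of Hoxc8, as described below, with every step called when each probe set was fitted on its own. In that fit the step from the embryo to the PN1 testis was not called for Hoxc8 (adjusted p = 0.0540 by limma) or Hoxc4 (adjusted p = 0.0627 by limma). Hoxa7 was not called there either, against the embryo (adjusted p = 0.0673 by limma) or with age (adjusted p = 0.0612 by limma).

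Paralog number alone did not order the differences. Across the 33 genes, 3 of them at the floor on all arrays, Spearman's correlation between paralog number and the mean log2 difference was -0.148 for the E13.5 testis minus the embryo (-0.120 in 129/Sv and -0.164 in 129.MOLF-Chr19). For the PN1 testis minus the embryo it was 0.146 (0.189 and 0.0661). Both are descriptions over genes that share arrays and lie beside each other. By group of paralogs, 1 of 5 tested genes numbered 1 to 4, 4 of 7 numbered 5 to 8 and 2 of 9 numbered 9 to 13 were higher in the E13.5 testis than in the embryo, beside 17.2% of all genes. With age, 3 of 5, 4 of 7 and 2 of 9 fell, beside 10.8% of all.

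Of the 33 genes, 11 had more than 1 probe set, which adds 15 probe sets, 7 of them tested when each probe set was fitted on its own. Hoxa5, which patterns the neck, lung and shoulder, gave the clearest disagreement. Its representing probe set 1443803_x_at read 634 and 673 at E13.5 and 501 and 522 at PN1, and was not called. The other, 1448926_at, read 665 and 626 in the E13.5 testis, 124 and 116 at PN1 and 576 and 587 in the embryo, the 116 being under its array's floor. On that probe set Hoxa5 fell with age by 2.41 ± 0.12 on the log2 scale (adjusted p = 0.000327 by limma), a size that the floor limits. It was also lower in the PN1 testis than in the embryo (-2.18 ± 0.12, adjusted p = 0.000113 by limma).

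Hoxa9, a posterior gene known from leukaemia with Meis1, showed the same split. Its probe set 1455626_at read 477 and 586 at E13.5, 79.1 and 105 at PN1 and 238 and 391 in the embryo, against 921 and 897, 704 and 631, and 1106 and 661 on the representing probe set. The age difference was -2.16 ± 0.20 (adjusted p = 0.00270 by limma) on the first and -0.44 ± 0.18 on the second. Both PN1 values of 1455626_at lie under the floor, so the size of its falls depends on the floor. On 1455626_at Hoxa9 was also higher in the E13.5 testis than in the embryo (0.88 ± 0.20, adjusted p = 0.0261 by limma) and lower in the PN1 testis (-1.28 ± 0.20, adjusted p = 0.00686 by limma). When the probe sets of each gene were averaged, Hoxa5 and Hoxa9 joined the genes that fell with age, and Hoxa9 joined those higher in the E13.5 testis than in the embryo. A Hoxa3 probe set, 1427433_s_at, read 213 and 195 at E13.5 and 42.1 and 40.3 at PN1, both under the floor, but was not tested. Hoxa3 probe set 1431392_at read 335 and 248, then 341 and 246, and was not called with age (0.01 ± 0.23, adjusted p = 0.977 by limma). Another, 1429398_at, read 110 and 102, then 105 and 111, each under its array's floor. The second probe set of Hoxa10, 1446408_at, read 91.6 and 84.0 at E13.5, 57.4 and 94.0 at PN1 and 88.3 and 77.9 in the embryo. All of these were under the floor, so it has no measured difference. Averaging its probe sets left Hoxa10 out of the genes tested.

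In Hoxc6 and Hoxb3 the probe sets differed in size. Hoxc6 probe set 1427454_at read 1059 and 1056 in the E13.5 testis, 305 and 232 at PN1 and 251 and 374 in the embryo. Its differences were 1.87 ± 0.24 for the E13.5 testis minus the embryo (adjusted p = 0.00402 by limma) and -1.98 ± 0.24 with age (adjusted p = 0.00607 by limma), against 0.48 and -0.77 on the representing probe set. The third Hoxc6 probe set, 1427361_at, gave 0.46 and -0.79. Hoxb3 probe set 1427605_at read 555 and 439 at E13.5 and 436 and 389 at PN1, and its age difference of -0.25 ± 0.13 (adjusted p = 0.253 by limma) was not called, against -0.99 on 1456229_at.

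For Hoxd8 the second probe set, 1433638_s_at, read 312 and 394, 347 and 422, and 150 and 182 in the same tissue order. It gave 1.17 ± 0.12 (adjusted p = 0.00214 by limma) for the E13.5 testis and 1.30 ± 0.12 (adjusted p = 0.000987 by limma) for the PN1 testis against the embryo, both larger than on the representing probe set. Hoxd13 probe set 1422239_at, not tested, read 119 and 114, 122 and 138, and 195 and 209. It was lower in the testis too. Hoxc5 probe sets 1450832_at (136 and 170 at E13.5, 67.0 and 61.6 at PN1) and 1456301_at (193 and 187, then 161 and 165) were not tested either. In the embryo they read 121 and 126, and 211 and 175. On 1456301_at the E13.5 testis and embryo arrays thus overlapped, with a mean log2 difference of 0.07. With probe sets averaged, Hoxc5 was not among the genes tested. In RefSeq the span of Hoxa3 overlaps those of Hoxa4, Hoxa5 and Hoxa6, and the span of Hoxb3 that of Hoxb4. Which transcripts each probe set reads was not tested.

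**Figure D3:**
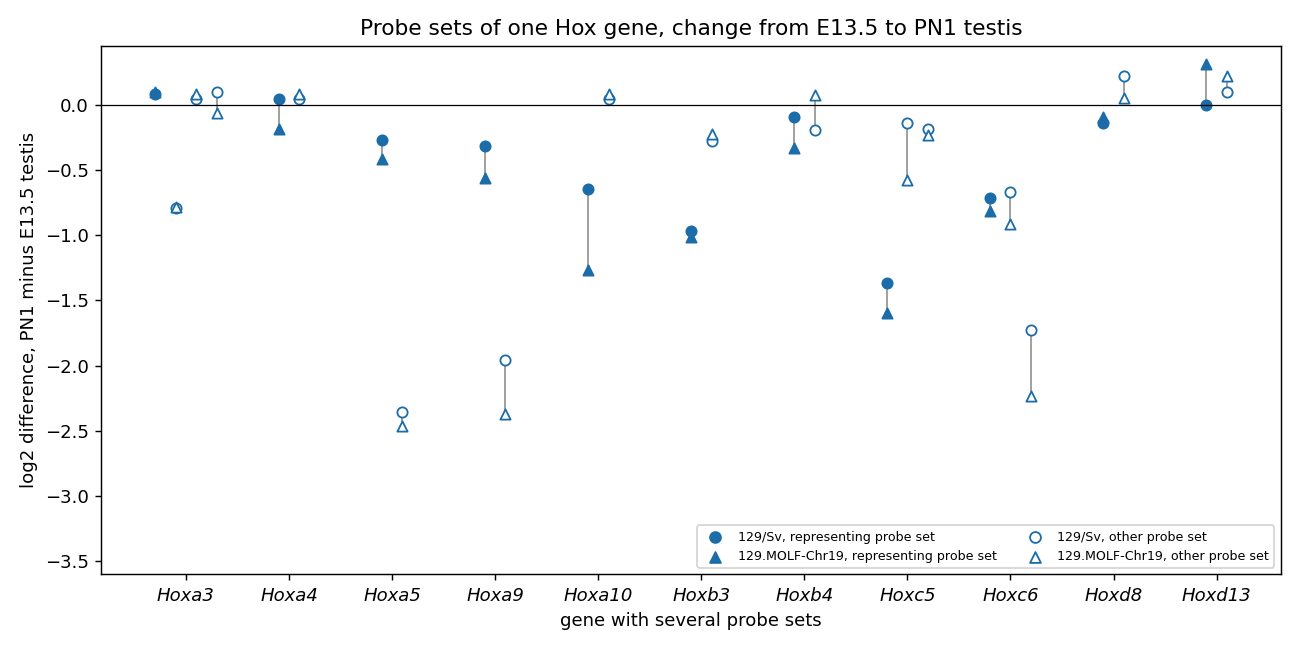
Log2 difference, PN1 minus E13.5 testis, in each strain for every probe set of the 11 Hox genes that have several; filled symbols mark the probe set that represents the gene, open symbols the others, circles 129/Sv and triangles 129.MOLF-Chr19. The other probe sets of Hoxa5 and Hoxa9 lie near -2.41 and -2.16 where the representing ones lie near -0.34 and -0.44.

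The strain comparison asks what chromosome 19 of MOLF changes in the gonad. Over the 3 tissues, 0 of the 21 tested Hox genes differed between strains in limma with tissue as a block, with 2 at an unadjusted p under 0.05, both lower in 129.MOLF-Chr19. Of all tested genes 0.0154% were called higher and 0.00768% lower, and 15.8% had an unadjusted p under 0.05. Differences of 129.MOLF-Chr19 minus 129/Sv ran from -0.36 (Hoxa3) to 0.19 (Hoxd8), with adjusted p from 0.285 to 0.923 by limma and SE from 0.0930 to 0.171.

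Within a tissue there is 1 array a strain and so no test. No Hox gene reached 2-fold in any tissue. Of all genes compared in the E13.5 testis, 0.0559% were that much higher in 129.MOLF-Chr19 and 0.0319% that much lower. The shares were 0.204% and 0.888% at PN1, and 0.0552% and 0.284% for embryos. The range was -0.23 (Hoxa3) to 0.46 (Hoxd9) in the E13.5 testis. At PN1 it was -0.44 (Hoxb9) to 0.67 (Hoxa13), and in the embryo -0.66 (Hoxa9) to 0.47 (Hoxb5). Hoxa9 read 1106 in the 129/Sv embryo and 661 in the other strain, and Hoxa3 1112 and 679. Both genes lie in the Hoxa cluster, and in the PN1 testis they read 704 and 631, and 833 and 720. Array medians themselves differed between strains by -0.117 on the log2 scale in the E13.5 testis, which centring removes.

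Genes that act with HOX proteins were taken from lists chosen for this purpose. Their counts stand beside the shares of all tested genes: 17.2% above and 5.34% below the embryo in the E13.5 testis, and 4.21% risen and 10.8% fallen with age. HOX proteins bind DNA with cofactors of the PBX, MEIS and PKNOX families. Of 7 tested cofactors 3 were higher in the E13.5 testis than in the embryo and 1 lower, and 3 fell with age and 0 rose. Meis1 read 1588 and 1587 in the E13.5 testis, 374 and 367 at PN1 and 596 and 639 in the embryo. It was higher in the E13.5 testis (1.45 ± 0.12, adjusted p = 0.000263 by limma) and fell with age (-2.09 ± 0.12, adjusted p = 9.57e-05 by limma), the same order of tissues as Hoxc8. Pknox2 read 407 and 452, 415 and 445, and 221 and 283, above the embryo at each age of the testis (0.86 ± 0.13 and 0.87 ± 0.13). Pbx3 was lower in the E13.5 testis (-0.60 ± 0.13). Meis2, picked out after its values were seen, read 2231 and 1720, 538 and 290, and 1613 and 1968, and fell with age (-2.30 ± 0.26, adjusted p = 0.00168 by limma).

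Polycomb proteins keep Hox genes silent and the MLL (Trithorax) complex keeps them active. Of 19 tested Polycomb genes 7 were higher in the E13.5 testis than in the embryo and 0 lower, and with age 9 fell and 0 rose. Phc1 (0.68 ± 0.12), Jarid2 (0.98 ± 0.19) and Rbbp7 (0.52 ± 0.10) were among the 7. Jarid2, which recruits the complex that methylates histone H3, read 1914 and 1290 at E13.5 and 710 and 871 at PN1. Of 8 tested MLL complex genes 2 were higher in the E13.5 testis, Ash2l (0.71 ± 0.13) and Rbbp5 (0.57 ± 0.12), and 4 fell with age. The Cdx and ParaHox genes sit upstream of or are related to the Hox genes. Only 2 of them, Gsx2 and Pdx1, were tested, and neither was called in any of the 3 comparisons. Cdx1, Cdx2, Cdx4 and Gsx1 did not pass the filter.

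Retinoic acid switches on Hox genes from the 3' end, and in the fetal testis it is broken down by CYP26B1. Of 16 tested genes of the pathway 6 were higher in the E13.5 testis than in the embryo and 2 lower, where 17.2% and 5.34% of all genes were. Aldh1a1, a retinoic acid synthesising enzyme, read 3919 and 3525 against 258 and 297 (3.83 ± 0.16, adjusted p = 6.26e-06 by limma). The binding proteins Crabp1 (217 and 286 against 802 and 873, -1.66 ± 0.13) and Crabp2 (293 and 371 against 905 and 1076, -1.50 ± 0.13) were lower. With age 1 rose and 5 fell, beside 4.21% and 10.8% of all. Of 9 tested urogenital ridge transcription factors 6 were higher in the E13.5 testis and 1 lower, led by Wt1 (4.09 ± 0.13), Tcf21 (3.95 ± 0.15) and Gata4 (2.16 ± 0.14). With age 3 rose and 4 fell, Wt1 among the latter (-0.60 ± 0.13) and Gata4 among the former (0.93 ± 0.14).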

How the data were processed

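RNA pools of 6 groups were hybridised to 6 Affymetrix mouse arrays, 1 per group, per the labels. The deposited table holds intensity values on a linear scale for 45101 probe sets as the authors processed them; how they summarised and scaled the probes is not given in the sources used here. Of the probe sets, 34958 carried 1 gene symbol, 932 several and 9211 none in the platform annotation, and 64 were controls. Intensities were floored at each array's 25th percentile, taken to log2 and centred on the median of non-control probe sets. Genes above the array median on at least 2 arrays (13027) entered a linear model of tissue and strain (limma 3.58.1, R 4.3.3, lmFit and eBayes with a variance trend) over the 6 arrays, leaving 2 residual degrees of freedom, with Benjamini-Hochberg adjustment over all tested genes and a threshold of 0.05. Tests are two-sided, and SE is the moderated standard error of the difference. The number of arrays limits the precision. The fit was tested on simulated data. A fit of each probe set was added after the values were seen.

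All Hox genes of the rule are named. Members called in a fit are given on every array, and lists by up to 3 members of smallest p in the first comparison. The members and the gene lists were chosen with earlier results of these data known. Promoters come from RefSeq (GRCm38.p6). The alternatives changed the scaling, floor, filter, choice of probe set, variance model, block, arrays in the fit and fold threshold, and left out each array in turn. Python 3.11.15 with pandas 2.3.3 made the tables.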

Additional observations from a re-analysis of the deposited data

Results flagged for a closer look

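Hoxd3os1, a RNA antisense to Hoxd3 that lies outside the symbol rule, carried signal in the Hoxd cluster that the comparisons above do not use. Its probe set 1460056_at read 428 and 420 in the E13.5 testis, 285 and 192 at PN1 and 109 and 124 in the embryo, which serves as the control. The 109 is under its array's floor, and the probe set entered the test only through testis arrays, so the size of the difference depends on the floor. The log2 difference of the E13.5 testis minus the embryo was 1.85 ± 0.19 (adjusted p = 0.00218 by limma), both testis arrays lying above both embryo arrays. It was 1.00 ± 0.19 for the PN1 testis minus the embryo and -0.85 ± 0.19 with age. A second Hoxd3os1 probe set, 1430263_at, read 253 and 231, 228 and 238, and 266 and 223 and was not called (0.07 ± 0.13).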

How the results depend on the processing

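No member's call changed direction under any alternative, and of the comparisons of single called genes 383 kept their side of the threshold and 63 lost it. The count of Hox genes lower in the E13.5 testis than in the embryo, 1 as reported, was 3 with values as deposited, 2 after quantile normalization, 2 with probe sets averaged, 3 without the filter, 2 without trend and 4 with only the arrays compared, and 1 to 4 on leaving out 1 array; the count higher ran from 4 to 7. For the PN1 testis minus the embryo, the count lower was 4 with a filter at the 75th percentile, where 12 Hox genes were tested, and 4 to 7 on leaving out 1 array. For the age change, the count higher was 1 after quantile normalization and 0 to 1 on leaving out 1 array, and the count lower 4 with the filter at the 75th percentile and 2 to 9 on leaving out 1 array. At 1.5-fold between strains, 1 Hox gene passed at PN1 and 2 among embryos. Spearman's correlation with paralog number for the E13.5 testis was -0.0931 after quantile normalization, -0.0431 as Pearson's r and -0.220 to -0.114 on leaving out 1 array; for the PN1 testis it was 0.0556 with a floor at the 40th percentile and 0.0886 to 0.208. The causes were not tested. A fit on 5 arrays assumes that the lone array of a tissue varies like the others. Signals near the floor, such as Hoxc5 and Hoxa10 at PN1 and Hoxd13 in the testis, limit the size of a fall. Each group holds 1 array, so replicate numbers pair nothing, and strain pairs the arrays across tissues as a block in the fit. Without that block the calls of Hoxc6 (E13.5 testis against embryo), Hoxa7 and Hoxc4 (PN1 testis against embryo) and Hoxa7 (age) were lost.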

Other observations

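Probe sets annotated to 2 Hox genes at once belong to no gene above. Of those for Hoxd4 and Hoxd3, 1450209_at read 196 and 191 in the E13.5 testis, 122 and 127 at PN1 and 106 and 110 in the embryo, and 1421537_at read 1076 and 742, 1144 and 932, and 1281 and 954. The mean log2 difference of the E13.5 testis minus the embryo was 0.75 on the first and -0.22 on the second, with no test. Both embryo values of 1450209_at were under the floor, so the size of its difference depends on the floor. On 1421537_at the E13.5 testis and embryo arrays overlapped. Hoxa11os, the antisense RNA of Hoxa11, read 332 and 393, 531 and 489, and 411 and 524 on 1452400_a_at and was not called in any of the 3 tissue comparisons. Hoxb5os, antisense to Hoxb5, read 263 and 277, 232 and 239, and 366 and 321 on 1447886_at and was not called either.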
